A study of Mus musculus with 5 samples.

Results

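The 10 genes *Ccn1*, *Ccn2*, *Ankrd1*, *Amotl2*, *Lats2*, *Axl*, *Crim1*, *Ptpn14*, *Tgfb2* and *Nuak2*, all widely used as readouts of the transcriptional coactivator YAP, were followed across the cells of sorted mouse retinas. They were taken by symbol from the 33696 genes that all libraries list, and no measured value enters that rule. The cells came from adult *Glast-CreERT2; Rosa26-Ai65* mice on a C57BL/6J background, 12 to 20 weeks old, of both sexes. All groups received tamoxifen and an intravitreal ShH10 AAV in which the *Gfap* promoter drove either *Yap5SA* with FlpO (*Yap5SA* AAV) or the red fluorescent protein mKate2 with FlpO (*mKate2* AAV, the control). YAP5SA is a YAP whose inhibitory phosphorylation sites were mutated. Cre and FlpO together switch on the reporter tdTomato, and tdTomato+ cells were sorted 56 days after injection for droplet sequencing of single cells, from 16 pooled retinas (*mKate2* AAV) or 21 (*Yap5SA* AAV). How the pools were divided among libraries is not given in the sources used here. Labelling was thus limited to cells in which both the *Glast* driver and the *Gfap* promoter had been active, and the vectors were injected at different titres. By the paper's immunostaining and Western blot, the tagged YAP5SA protein was no longer detected 56 days after infection. The question of the comparison between vectors was whether YAP targets still differed in the glia at this late time.

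YAP and its relative TAZ (encoded by *Wwtr1*) bind TEAD transcription factors and switch on genes of growth, adhesion and matrix. The Hippo kinases MST and LATS phosphorylate YAP and TAZ and keep them out of the nucleus, and several targets code for proteins that feed back on this pathway. Müller glia (MG), the radial glia that span the retina, express YAP, and mature neurons of the mammalian retina mostly do not.

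Of 5 libraries, *Yap5SA* AAV replicate 2 shared 1361 barcodes with replicate 1, or 99.8% of the smaller library, and was left out, while the other pairs shared 0 to 7. The 4 libraries left were replicates 1 and 2 of *mKate2* AAV, then 1 and 3 of *Yap5SA* AAV, the order in which values are given throughout. They held 13134827 to 50938304 unique molecular identifiers (UMIs, one per captured transcript) in 1407 to 7729 barcodes. MG were cells with at least 1000 UMIs, at most 15% mitochondrial UMIs and at least 0.5% of UMIs in *Glul*, *Rlbp1*, *Slc1a3*, *Clu* and *Aqp4*. This gave 1499, 2898, 804 and 1341 MG in that order, with median depths of 6193, 2919, 10776 and 2920 UMIs. Just inside the 0.5% limit (up to 0.6%) lay 38 to 72 cells per library, and just outside it (from 0.4%) 33 to 80. The matrix header named Cell Ranger 8.0.0 for replicate 1 of either vector and 9.0.1 for *mKate2* AAV replicate 2 and *Yap5SA* AAV replicate 3, so this version crossed the vectors. Levels are given as CPM, a gene's UMIs per 1000000 UMIs of the summed cells. The summed level of 17 immediate-early genes, such as *Fos* and *Jun*, which rise within minutes of stimulation or tissue dissociation, was 1151 and 2902 CPM in MG of the 8.0.0 libraries and 26086 and 17118 CPM in those of the 9.0.1 libraries. In the 8.0.0 libraries, which list the reporter, 45.1% and 65.2% of MG and 3.70% and 4.14% of microglia and macrophages had a tdTomato UMI. Cells were assigned to other types by their own markers, with limits set after the marker distributions had been seen. There were 27, 899, 145 and 62 microglia and macrophages. Rods (582 and 556), cones (30 and 32), bipolar cells (370 and 61) and retinal pigment epithelium (RPE) cells (24 and 60) reached at least 20 cells in the 9.0.1 libraries only, and amacrine cells (68) in *mKate2* AAV replicate 2 only. Rod and RPE markers were also present in MG. The 10 rod markers summed to 113, 924, 9.87 and 1784 CPM, and the 8 RPE markers to 16.4, 505, 228 and 3967 CPM.

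The promoters of *Ccn1* and *Amotl2* are shown because these were the members that passed an unadjusted p of 0.05 between the 9.0.1 and the 8.0.0 libraries (described further on), and because TEAD factors, the partners of YAP, recognise the letters GGAATG. The lines below give the 250 bases before the start of each gene's canonical transcript (GENCODE vM39) in GRCm39, 5′ to 3′ on the gene's strand, with GGAATG or its reverse complement CATTCC in capitals. *Ccn1* lies on chr3:145352720-145355738, minus strand, with 5 exons. *Amotl2* lies on chr9:102594867-102610617, plus strand, with 10 exons.
Ccn1, chr3:145355739-145355988, minus strand: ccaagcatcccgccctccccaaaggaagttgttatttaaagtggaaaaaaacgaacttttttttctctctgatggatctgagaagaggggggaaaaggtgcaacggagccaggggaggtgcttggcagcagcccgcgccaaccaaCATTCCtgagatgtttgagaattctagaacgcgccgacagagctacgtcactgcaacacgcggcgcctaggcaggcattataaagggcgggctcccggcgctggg
Amotl2, chr9:102594617-102594866, plus strand: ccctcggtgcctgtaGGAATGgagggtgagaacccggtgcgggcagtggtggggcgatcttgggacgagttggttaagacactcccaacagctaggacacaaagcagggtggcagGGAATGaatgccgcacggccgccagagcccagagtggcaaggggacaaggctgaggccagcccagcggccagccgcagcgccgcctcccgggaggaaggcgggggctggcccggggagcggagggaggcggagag
*Ccn1* held 1 match, beginning 105 bases before the start, and *Amotl2* held 2, at 235 and 135 bases. Of the 10 members, 6 held GGAATG on either strand, as did 12.11% of 21770 windows of the same length before the canonical transcripts of protein-coding genes. The AP-1 letters TGANTCA were in 0 of 10 members and 6.17% of all windows, and the CArG box of the serum response factor was in 0 of 10 members and 1.4% of all windows. No matches overlapped each other. A match is a string of letters, and no binding was measured here.

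MG stood apart from most other sorted cells in these genes. Counts were summed per library and cell type and compared by the quasi-likelihood test of edgeR, with p-values adjusted over all genes by the Benjamini-Hochberg method and the library as a block. Of the 10 genes, 9 passed the filter on low counts and *Ankrd1* did not. Against rods, 8 of the 9 were higher in MG and 1 was lower, where 59.4% of 14580 genes were called (34.3% higher and 25.1% lower in MG). Against cones 7 of 9 were higher (38.5% of 13497 genes called, 25.1% higher), of which DESeq2 called 3 (21.4% of all genes), against bipolar cells 7 of 9 were higher (56.2% of 15551, 30.4% higher), and against microglia and macrophages 6 were higher and 2 lower (50.9% of 14303, of which 29.3% of genes higher and 21.7% lower). The members' median log2 fold change was 6.22, 5.21, 3.41 and 3.98 in these comparisons, beside 0.12, 0.26, 0.06 and 0.25 over all genes. With members of 0 to 3 UMIs in the other type set at their bound or ratio, the members' medians were 5.21 for rods and 4.54 for cones. Such members passed the filter on low counts through MG alone. Against rods those called were *Ptpn14* (0 UMIs in rods), *Axl* (2) and *Nuak2* (3). Against cones they were *Ccn2* (0), *Ptpn14* (0) and *Axl* (1), and against microglia and macrophages *Ptpn14* (3). The counts of calls include them, and their calls are no support independent of that filter. All comparisons share the same MG, and those with rods, cones and bipolar cells rest on the 9.0.1 libraries. Since nothing says that libraries of a vector came from separate animals, p-values measure only the spread between these libraries, which may be technical.

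**Figure D1:**
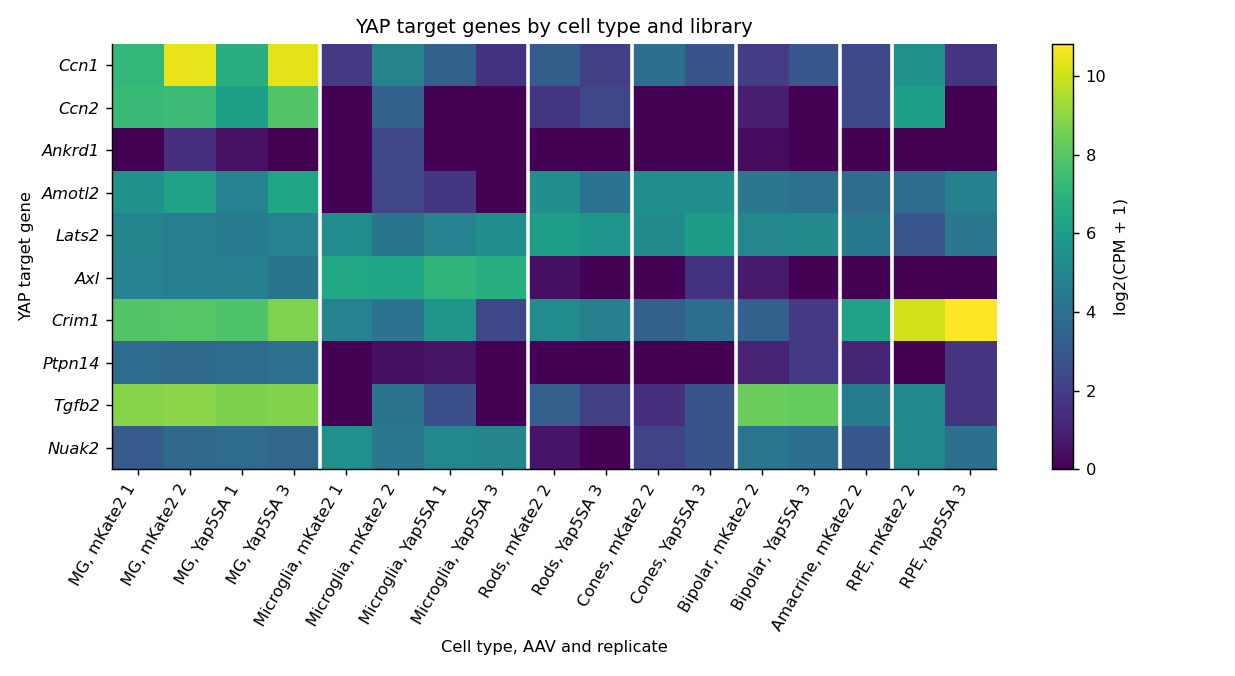
Level of the 10 YAP target genes as log2(CPM + 1) by color, for each cell type and library with at least 20 cells (columns, grouped by cell type between white lines). *Ccn1*, *Ccn2* and *Ptpn14* are brightest in the 4 MG columns, *Axl* in the 4 microglia columns and *Crim1* in the 2 RPE columns.

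*Ccn1* and *Ccn2* code for secreted matricellular proteins that bind integrins and growth factors. *Ccn1* in MG was 143, 1411, 108 and 1333 CPM in the libraries as ordered above. In microglia and macrophages of the same libraries it was 2.44, 28.0, 9.15 and 1.99 CPM, below the MG of every library. In rods it was 8.09 and 3.11 CPM, in cones 14.4 and 6.03 CPM and in bipolar cells 2.85 and 6.74 CPM (*mKate2* AAV replicate 2 and *Yap5SA* AAV replicate 3 here and below). MG exceeded microglia and macrophages by 5.12 on the log2 scale (SE 0.66, adjusted p = 0.000125) and bipolar cells by 8.70 (SE 0.46, adjusted p = 2.743e-07). In the order of levels over the 9.0.1 libraries MG came first, and the types that followed each overlapped with the next. Cells given no type held 19.8, 78.3, 269 and 98.4 CPM, in *Yap5SA* AAV replicate 1 more than MG.

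*Ccn2* in MG was 157, 172, 67.4 and 235 CPM. It was low in microglia and macrophages at 0, 8.83, 0 and 0 CPM, in rods at 2.29 and 3.89 CPM, and in bipolar cells at 0.869 and 0 CPM. Cells given no type (145, 789, 175 and 244) held 37.1, 27.5, 81.8 and 17.6 CPM, in *Yap5SA* AAV replicate 1 more than MG. No *Ccn2* UMI was seen in cones, and against a floor of 3 UMIs over both libraries MG were at least 66.9-fold higher. MG exceeded rods by 6.22 on the log2 scale (SE 0.30, adjusted p = 1.287e-07) and microglia and macrophages by 5.25 (SE 0.65, adjusted p = 8.837e-05). RPE cells of *mKate2* AAV replicate 2 held 64.1 CPM on 10 UMIs and those of *Yap5SA* AAV replicate 3 held 0, so the second place of RPE cells rests on 1 library of 24 cells.

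*Tgfb2*, a ligand of the TGFβ family made by glia of the retina, was the member with the steadiest level in MG, at 456, 487, 416 and 440 CPM. Bipolar cells also held *Tgfb2*, at 326 and 305 CPM. MG lay above bipolar cells in both libraries, by 0.73 on the log2 scale (SE 0.23, adjusted p = 0.0211 by edgeR's quasi-likelihood test), but without TMM scaling the difference was 0.55 (adjusted p = 0.0562) and with MG of at least 2% marker UMIs it was 0.40 (adjusted p = 0.258). Microglia and macrophages held 0, 17.1, 5.30 and 0 CPM, rods 8.62 and 3.11 CPM, and cones 1.80 and 6.03 CPM. Among the 5 clusters named bipolar in *mKate2* AAV replicate 2, *Tgfb2* ranged from 2.73 CPM (32 cells, led by *Erbb4* and *Slit2*) and 72.2 CPM (105 cells, led by *Grik1*) to 799 CPM in 54 cells led by *Prkca*, *Trpm1* and *Pcp2*, genes of rod bipolar cells. The remaining 2 bipolar clusters held 400 and 496 CPM. These clusters were made without the members, and their differences are given as levels with no test.

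*Axl*, a receptor tyrosine kinase that myeloid cells use in clearing dying cells, ran the other way between glia and myeloid cells. Microglia and macrophages held 87.9, 83.2, 133 and 110 CPM and MG 26.7, 24.2, 24.3 and 17.4 CPM, with no overlap. MG were lower by 2.62 on the log2 scale (SE 0.27, adjusted p = 2.868e-05). In photoreceptors and bipolar cells *Axl* was at or under 2.01 CPM, on 2 UMIs in rods, 1 in cones and 6 in bipolar cells. MG therefore ranked second, apart from both neighbours in the order. The ratio of MG to rods was 91.4 with an exact counting interval from 25.2 to 756, so its size is loosely fixed.

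*Crim1*, a transmembrane protein with cysteine-rich repeats that binds BMP ligands, was 240, 250, 230 and 426 CPM in MG. RPE cells held more, 1090 and 1806 CPM, and amacrine cells of *mKate2* AAV replicate 2 held 73.4 CPM. Rods held 35.9 and 25.3 CPM, cones 8.99 and 14.1 CPM and bipolar cells 8.94 and 2.53 CPM. The rule for MG also admitted 23 of the 24 RPE cells of *mKate2* AAV replicate 2 and all 60 of *Yap5SA* AAV replicate 3, where RPE markers in MG were highest. Without the cells past the limit of another type, *Crim1* in MG was 240, 248, 226 and 345 CPM. *Yap5SA* AAV replicate 3 was still the highest of the 4. MG exceeded microglia and macrophages by 3.15 (SE 0.52, adjusted p = 0.000633) and rods by 3.53 (SE 0.30, adjusted p = 2.287e-06) on the log2 scale in edgeR's test.

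3 members code for proteins that restrain YAP itself. *Amotl2*, a junctional scaffold that binds YAP, was 45.1, 74.1, 26.5 and 84.5 CPM in MG. Cones held 41.3 and 38.2 CPM, rods 38.3 and 16.3 CPM, bipolar cells 18.6 and 15.2 CPM and microglia and macrophages 0 to 3.94 CPM. *Amotl2* was thus detectable in all neurons tested, and MG exceeded rods by 1.71 (SE 0.28, adjusted p = 0.000381) and microglia by 3.98 (SE 0.50, adjusted p = 9.672e-05). With MG of at least 2% marker UMIs the call was lost against rods (0.53, adjusted p = 0.201) and cones (0.18, adjusted p = 0.722), by edgeR's quasi-likelihood test in each case.

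*Ptpn14*, a phosphatase that binds YAP in the cytoplasm, had low levels in MG that hardly varied, 12.9, 12.5, 13.0 and 15.7 CPM. Cells given no type held 2.47, 15.9, 12.9 and 7.96 CPM, which overlapped with MG. No UMI was seen in rods or cones of the 9.0.1 libraries, so MG were at least 37.0-fold above rods and at least 4.72-fold above cones, at a floor of 3 UMIs over both libraries. Bipolar cells held 1.12 and 2.53 CPM, and MG exceeded them by 3.41 on the log2 scale (SE 0.50, adjusted p = 0.000242). Microglia and macrophages held 3 UMIs in all, a ratio of 36.6 with an exact counting interval from 12.5 to 178.

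*Lats2*, a kinase that phosphorylates YAP, was the only one of the 9 members tested that edgeR called higher in MG against none of the 4 cell types. MG held 28.5, 23.9, 20.4 and 26.8 CPM, microglia and macrophages 36.6, 17.5, 26.5 and 39.8 CPM, cones 34.1 and 60.3 CPM, and bipolar cells 31.2 and 32.9 CPM. Rods held 63.5 and 51.0 CPM, more than MG in both libraries, and MG were lower by 1.05 on the log2 scale (SE 0.22, adjusted p = 0.00175). The differences from cones (−0.50), bipolar cells (−0.16) and microglia and macrophages (−0.66, adjusted p = 0.0818) did not pass the test. Microglia were called without *mKate2* AAV replicate 2 (−0.92, adjusted p = 0.0345). With MG of at least 2% marker UMIs, cones (−1.21, adjusted p = 0.0467), bipolar cells (−0.91, adjusted p = 0.0128) and microglia (−1.07, adjusted p = 0.0114) were all called by edgeR's quasi-likelihood test, with *Lats2* lower in MG.

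*Nuak2*, a kinase related to AMPK that acts on actomyosin, was low in MG at 7.66, 12.3, 12.8 and 11.0 CPM and higher in microglia and macrophages at 41.5, 18.6, 32.3 and 29.9 CPM. MG were lower by 1.86 on the log2 scale (SE 0.35, adjusted p = 0.00145). Within the myeloid cells of *mKate2* AAV replicate 2 its level differed between clusters. A cluster of 71 cells led by *Cxcl2*, *Ccl4* and *Rgs1*, with a median of 21870 UMIs, held 69.7 CPM, while clusters of 421 and 418 cells with medians of 3601 and 3990 UMIs held 0.482 and 1.03 CPM. The 2 low values lie under the floor of 3 UMIs, so the size of the difference is loosely fixed. It rests on 1 library, and the part of depth was not tested. *Axl* in the same 3 clusters was 114, 82.5 and 48.0 CPM, so it spanned a far smaller range. In bipolar cells *Nuak2* was 18.0 and 14.3 CPM, not called against MG (−0.30, adjusted p = 0.445), and rods held 3 UMIs in all.

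*Ankrd1*, an ankyrin-repeat protein of nucleus and sarcomere that is among the most used YAP reporters, was barely present in MG. MG held 0, 34, 4 and 0 UMIs of it, or 0, 1.83, 0.416 and 0 CPM. Microglia and macrophages held 0, 22, 0 and 0 UMIs, and their 4.13 CPM in *mKate2* AAV replicate 2 was above MG of that library. Rods, cones, amacrine cells and RPE cells of the 9.0.1 libraries held none. Of 430 *Ankrd1* UMIs in *mKate2* AAV replicate 2, 398 (92.6%) lay in 1 cluster of 324 cells, as did 11 of 12 in *Yap5SA* AAV replicate 1 (32 cells of the cluster). There the level was 212.5 and 35.5 CPM, and 22.2% and 15.6% of the cells had a UMI. This cluster was led by *Igfbp2*, *Igfbp7*, *Apod*, *Rgs5*, *Ccnd1*, *Tagln* and *Tpm1*, was given no cell type name, and had 0 cells in *mKate2* AAV replicate 1 and 7 in *Yap5SA* AAV replicate 3. Of its cells, 104 in *mKate2* AAV replicate 2 and 4 in *Yap5SA* AAV replicate 1 met the MG rule, and 14 of the 32 in the latter had a tdTomato UMI. The other members were mixed in these cells. *Lats2* was 62.0 and 99.9 CPM and *Ptpn14* 46.5 and 32.2 CPM, beside 23.9 and 20.4 CPM and 12.5 and 13.0 CPM in MG of these libraries. *Amotl2*, *Axl* and *Crim1* were also above MG in both. *Tgfb2* was below MG in both, at 320 and 206 CPM beside 487 and 416 CPM. *Ccn1* and *Ccn2* were below MG in *mKate2* AAV replicate 2 and above in *Yap5SA* AAV replicate 1, and *Nuak2* the reverse.

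**Figure D2:**
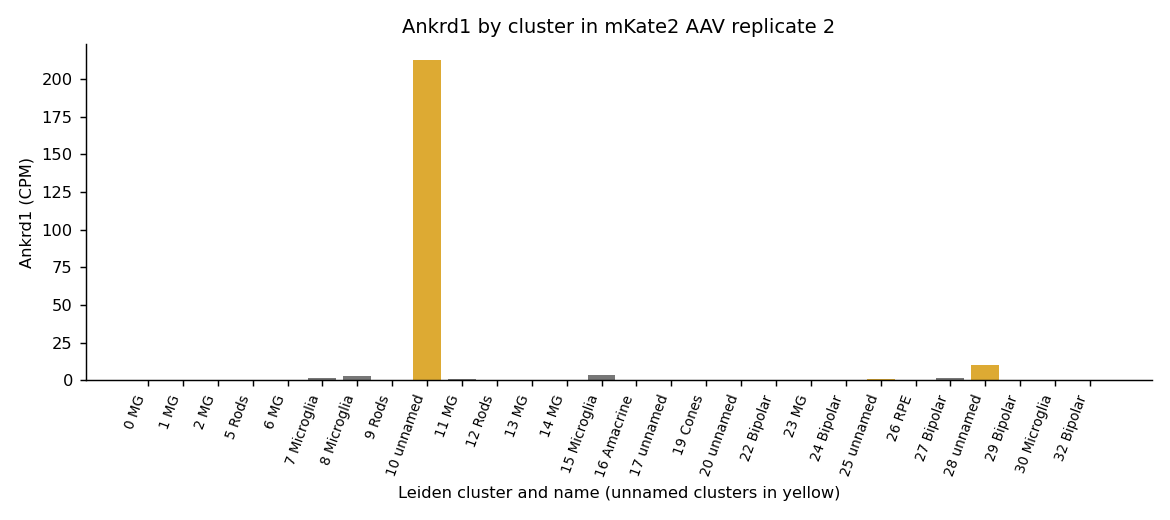
*Ankrd1* level (CPM, linear axis from 0) in each cluster of at least 20 cells of *mKate2* AAV replicate 2, with unnamed clusters in yellow. The bar at 212.5 CPM is cluster 10, which held 398 of the 430 *Ankrd1* UMIs.

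Between the vectors, no member differed in MG beyond the spread between libraries. edgeR's quasi-likelihood test called 0 of 15285 genes (a background of 0%) and 0 of the 9 members tested. At an unadjusted p under 0.05, 30 genes (0.196%) and 0 members passed, and DESeq2 called 0 genes, with 52 (0.34%) at an unadjusted p under 0.05. The fit had no term for the Cell Ranger version, so differences between the versions were part of that spread. With this term edgeR called 0 genes and 0 members, and 150 genes passed an unadjusted p under 0.05. With 2 libraries per vector, 0 calls do not show that the vectors were alike. The members' median log2 fold change (*Yap5SA* over *mKate2* AAV) was −0.22, beside −0.03 over all genes, with 3 members above 0 and 6 below. Mean levels were 777 ± 897 and 721 ± 866 CPM (SD, n = 2) for *Ccn1*, 164 ± 10.2 and 151 ± 118 CPM for *Ccn2*, and 471 ± 21.8 and 428 ± 17.0 CPM for *Tgfb2* with *mKate2* and *Yap5SA* AAV. The libraries of the vectors did not overlap for *Tgfb2* (lower with *Yap5SA* AAV) and *Ptpn14* (higher), or 2 of 9 members, where 15.4% of all genes did not overlap.

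Within each Cell Ranger version the vectors could be compared as 1 library against 1, with no test. On the log2 scale of CPM, *Ccn2* was −1.22 in *Yap5SA* over *mKate2* AAV with 8.0.0 and 0.45 with 9.0.1. *Ccn1* was −0.39 and −0.08, *Amotl2* −0.77 and 0.19, and *Nuak2* 0.74 and −0.17. *Tgfb2* was −0.13 and −0.15, *Axl* −0.13 and −0.48, *Crim1* −0.06 and 0.77, *Lats2* −0.49 and 0.17, and *Ptpn14* 0.01 and 0.33. Of the 9, *Ccn1*, *Tgfb2*, *Axl* and *Ptpn14* had the same sign in both versions. The fitted fold change of *Ccn1* was −0.27 (SE 1.50). It moved to 2.38 without *mKate2* AAV replicate 2 and to −3.04 without *Yap5SA* AAV replicate 3, and edgeR called it in neither of these fits.

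**Figure D3:**
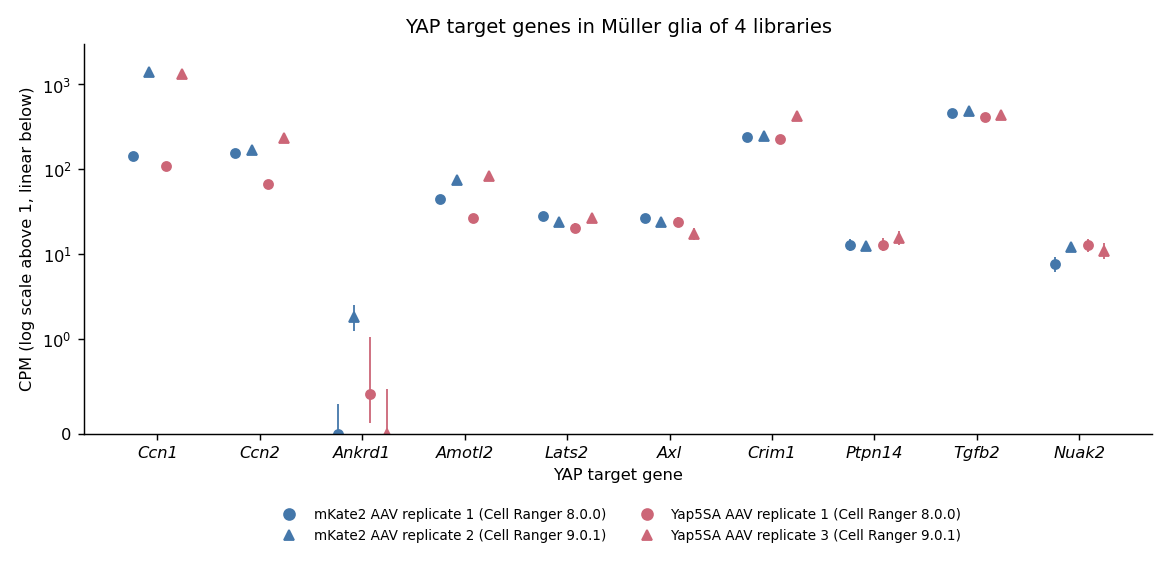
CPM of each YAP target gene in the MG of the 4 libraries, on a vertical axis that is logarithmic above 1 and linear below. Blue is *mKate2* AAV, red is *Yap5SA* AAV, circles are Cell Ranger 8.0.0 and triangles 9.0.1, and bars are exact 95% Poisson intervals that cover counting error only. *Ccn1* separates by triangles and circles, not by color.

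*Ccn1* divided the libraries by the Cell Ranger version in the matrix header and not by vector, with 126 CPM on average in the 8.0.0 libraries and 1372 CPM in the 9.0.1 libraries. With the vector as a term, the log2 difference (9.0.1 over 8.0.0) was 3.60 (SE 0.36, unadjusted p = 0.000574, adjusted p = 0.178 by edgeR's quasi-likelihood test). edgeR called 0 genes here, 12.4% of 15285 genes and 2 of 9 members (*Ccn1* and *Amotl2*) passed an unadjusted p of 0.05, and DESeq2 called 528 genes (3.45%) and 2 members. DESeq2's adjusted p was 1.301e-25 for *Ccn1* and 0.0397 for *Amotl2*. *Amotl2* was 45.1 and 26.5 CPM in the 8.0.0 libraries against 74.1 and 84.5 CPM in the 9.0.1 libraries, a difference of 1.33 (SE 0.28, edgeR adjusted p = 0.286). *Ccn2* differed by 1.10 (SE 0.45), *Crim1* by 0.61 (SE 0.30), and *Lats2*, *Ptpn14*, *Tgfb2* and *Nuak2* by 0.20 to 0.37. The members' median was 0.37, beside 0.01 over all genes. *Ccn1*, *Ccn2*, *Amotl2*, *Axl* and *Crim1* did not overlap between the versions, as 54.9% of all genes did not. Of these, *Axl* was lower in the 9.0.1 libraries (−0.18, SE 0.27) and the others were higher. All 17 immediate-early genes passed an unadjusted p of 0.05 in the same fit (median 3.83), as did 5 of 6 heat shock genes (median 2.93) and 5 of 9 target genes of the serum response factor (median 2.48). Their part in the levels of *Ccn1* was not tested in this contrast, and the version cannot be told apart from anything else that differed between these pairs of libraries, such as handling and depth.

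Within each library, *Ccn1* was higher in the class of MG with the higher immediate-early gene share. MG of each library were split at their median share of UMIs in the 17 immediate-early genes, none of which is a member, into a lower and an upper class. The list is not independent of *Ccn1*. A cluster of 334 cells named MG was led by *Ccn1* together with *Btg2*, *Jun*, *Nr4a1* and *Fosb*, which are in the list. The result for *Ccn1* is therefore a description of genes that go together in these cells. *Ccn1* in the lower and upper class was 34.0 and 229 CPM in *mKate2* AAV replicate 1, and 88.8 and 1965 CPM in replicate 2. It was 32.6 and 164 CPM in *Yap5SA* AAV replicate 1 and 59.5 and 2194 CPM in replicate 3. The upper class was higher in 4 of 4 libraries, and the difference between versions was smaller in the lower classes than in the upper classes. With the library as a block the log2 difference was 3.65 (SE 0.51, adjusted p = 0.0385), and *Ccn1* was the only member of 9 that edgeR called, where 0.48% of 13529 genes were called (0.436% higher in the upper class). Without *mKate2* AAV replicate 2 it was 3.42 (adjusted p = 0.140) and without *Yap5SA* AAV replicate 3 it was 3.14 (adjusted p = 0.116), so the call rests on both 9.0.1 libraries.

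Among the other members, *Nuak2* (1.15, SE 0.29, adjusted p = 0.219), *Ccn2* (1.13, SE 0.39, adjusted p = 0.326) and *Amotl2* (1.12, SE 0.33, adjusted p = 0.269) had log2 differences over 1 that edgeR did not call. *Ccn2* in the lower and upper class was 128 and 180 CPM in *mKate2* AAV replicate 1, 61.9 and 218 CPM in replicate 2, 68.2 and 66.8 CPM in *Yap5SA* AAV replicate 1, and 62.7 and 351 CPM in replicate 3. The gap was thus widest in the 9.0.1 libraries. *Nuak2* went from 7.03 to 8.17, from 3.82 to 15.9, from 7.85 to 16.4 and from 5.06 to 14.98 CPM, higher in 4 of 4. *Tgfb2* (0.33), *Ptpn14* (0.41), *Axl* (0.23), *Lats2* (0.16) and *Crim1* (−0.13) had smaller differences, none called. 5 of the 9 members passed an unadjusted p of 0.05, beside 13.2% of all genes, and the members' median was 0.41, beside −0.01. The upper classes were also deeper, with median UMIs of 6813, 3593, 13088 and 3276 against 5619, 2543, 8954 and 2635, and the part of depth in these differences was not tested.

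**Figure D4:**
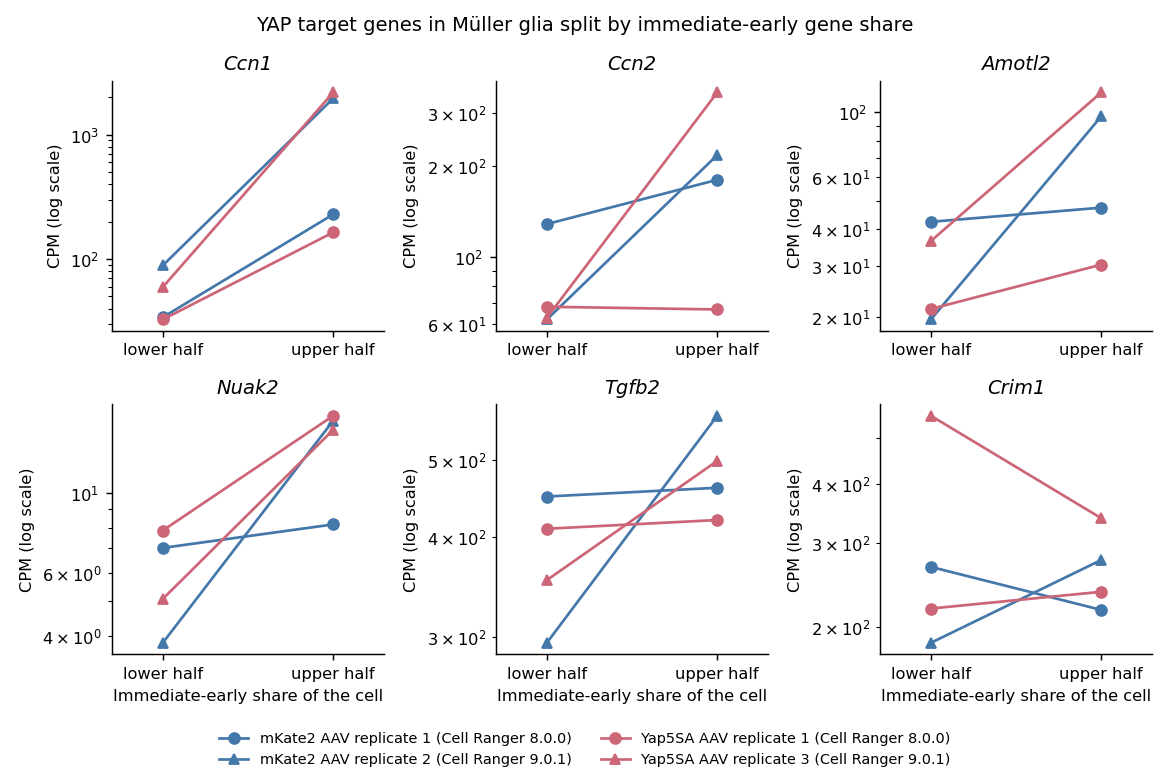
CPM (log vertical axes) in the lower and the upper class of MG by immediate-early gene share, for 6 members, with a line for each of the 4 libraries (blue *mKate2* AAV, red *Yap5SA* AAV). *Ccn1* was higher in the upper class of every library, from 32.6 to 88.8 CPM in the lower classes to 164 to 2194 CPM in the upper classes, while *Crim1* was lower in the upper class in 2 of 4 and was not called.

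Most members were higher in deep than in shallow MG. MG with at least 5000 UMIs (842, 751, 588 and 340 cells) were compared with shallower MG (657, 2147, 216 and 1001 cells) of the same library. Deep MG also held more of the immediate-early genes, at 1208, 34791, 2993 and 23480 CPM. Shallow MG held 777, 4714.5, 1425 and 3443 CPM of them, and the part of these genes in the differences by depth was not tested. edgeR called 5 of 9 members, all higher in deep MG, where 34.5% of 13368 genes were called (19% higher). *Tgfb2* was 256 and 486 CPM in shallow and deep MG of *mKate2* AAV replicate 1, 228 and 592 CPM in replicate 2, 196 and 429 CPM in *Yap5SA* AAV replicate 1 and 255 and 525 CPM in replicate 3. Deep MG held more in 4 of 4 libraries, a log2 difference of 0.89 (SE 0.18, adjusted p = 0.00497). *Ccn1* (1.61, adjusted p = 0.0158), *Nuak2* (1.34, adjusted p = 0.0357), *Ccn2* (0.72, adjusted p = 0.0251) and *Crim1* (0.71, adjusted p = 0.0168) were also higher by edgeR's test. *Amotl2* (0.53), *Ptpn14* (0.51), *Lats2* (0.44) and *Axl* (0.22) were not called. The members' median was 0.71, beside 0.11 over all genes. Without *mKate2* AAV replicate 2 only *Tgfb2* was called, and *Ccn1* (1.19), *Nuak2* (0.88), *Ccn2* (0.65) and *Crim1* (0.56) were not. Without *Yap5SA* AAV replicate 3 only *Tgfb2* and *Crim1* were called, with *Ccn1* at 1.24, *Nuak2* at 1.03 and *Ccn2* at 0.56. Without *mKate2* AAV replicate 1, *Ccn2* (0.72, adjusted p = 0.0589) and *Crim1* (0.70, adjusted p = 0.0529 by edgeR) were lost at nearly the same size, and DESeq2 did not call *Nuak2* (1.20, adjusted p = 0.0562). With the limit at 10000 UMIs neither a member nor any other gene was called, with *Ccn1* at 1.80, *Nuak2* at 1.31, *Tgfb2* at 0.72, *Ccn2* at 0.64 and *Crim1* at 0.48.

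To compare shares of positive cells at equal depth, each MG was thinned to 2000 UMIs, which left out 309, 870, 94 and 411 shallower cells and kept 1190, 2028, 710 and 930. *Ccn1* was then seen in 13.9% (exact 95% interval 12.0 to 16.1), 33.8% (31.8 to 35.9), 10.7% (8.53 to 13.2) and 33.7% (30.6 to 36.8) of MG. The unthinned shares were 23.5%, 35.7%, 24.3% and 35.8%. *Tgfb2* was the most often seen member, in 51.9%, 35.5%, 45.9% and 37.9% of thinned MG, and its unthinned shares of 66.9%, 42.4%, 75.0% and 42.6% followed the depth of the libraries. *Crim1* was seen in 31.3%, 21.2%, 31.7% and 35.0%, *Ccn2* in 19.7%, 12.7%, 10.3% and 18.0%, and *Amotl2* in 8.32%, 5.72%, 6.20% and 8.49%. *Lats2*, *Axl*, *Ptpn14* and *Nuak2* were each seen in under 5% of MG in every library, and *Ankrd1* in 0, 2, 1 and 0 cells, where a floor of 3 cells allows a share of cells with a UMI at this depth of up to 0.252% for 0 of 1190 and 0.323% for 0 of 930, which is no limit on the share expressing the gene. In microglia and macrophages of *mKate2* AAV replicate 2 (738 cells at the same 2000 UMIs), *Ccn1* was seen in 1.63%, *Tgfb2* in 1.36%, *Crim1* in 1.63%, *Ccn2* in 0.407% and *Axl* in 12.1%. Whether the UMIs of glial members in these cells came from free RNA, doublets or the cells themselves was not tested.

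Between the vectors the libraries overlapped for 9 members, of 10 compared, where the thinned shares of 16.1% of 15285 genes did not overlap. *Crim1* was the exception, at 26.3% ± 7.17 with *mKate2* AAV and 33.3% ± 2.30 with *Yap5SA* AAV (SD, n = 2), a difference of 7.04 points with an exact two-sided permutation p of 0.333, the smallest that 2 libraries against 2 allow. Without thinning its libraries overlapped. MG past the RPE marker limit, 0, 23, 3 and 60 by library, were not removed before thinning. RPE cells held *Crim1* at 1090 and 1806 CPM in the 9.0.1 libraries, and their part in this difference was not tested. The other 9 members had unadjusted exact permutation p from 0.667 to 1.

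**Figure D5:**
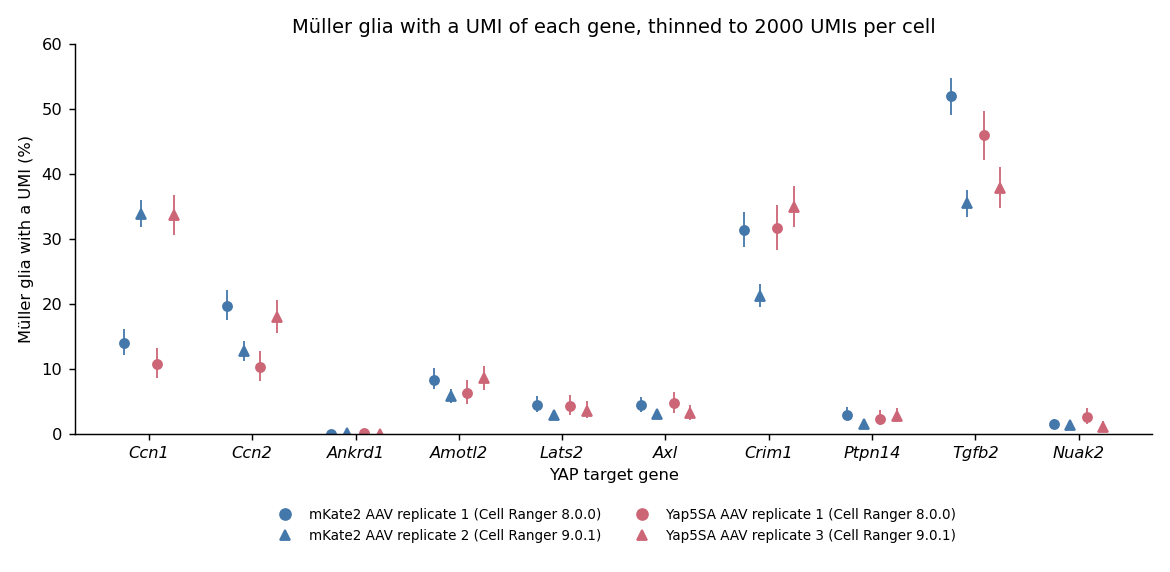
Percent of MG with at least 1 UMI of each member after thinning to 2000 UMIs per cell, by library, with exact 95% binomial intervals that cover counting error only. *Ccn1* lies near 34% in the 9.0.1 libraries and at 10.7% and 13.9% in the 8.0.0 libraries, while *Tgfb2* lies between 35.5% and 51.9%.

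Shares of MG with another member were set beside each other in MG with and without *Ccn1*. At 2000 UMIs, *Ccn2* was found in 26.5%, 21.4%, 13.2% and 29.1% of MG with a *Ccn1* UMI and in 18.6%, 8.20%, 9.94% and 12.3% of those without. *Tgfb2* was found in 70.5%, 46.4%, 53.9% and 51.8% of MG with *Ccn1* and in 48.9%, 29.9%, 45.0% and 30.8% of those without, higher in 4 of 4 libraries in either case. *Amotl2* was found in 11.4%, 10.1%, 9.21% and 13.4% of MG with *Ccn1* and in 7.81%, 3.50%, 5.84% and 6.00% of those without, also higher in 4 of 4. *Crim1* was found in 34.3%, 29.0%, 27.6% and 37.7% against 30.9%, 17.2%, 32.2% and 33.5%, so it was lower with *Ccn1* in *Yap5SA* AAV replicate 1. Thinning does not remove differences between cells that were deep and shallow before it. Deep MG held more *Ccn1* (1.61), *Tgfb2* (0.89) and *Ccn2* (0.72) on the log2 scale of CPM. The part of depth in these shares was not tested, and the matching share over all genes is not given. At least 3 of the 10 members were seen in 14.1%, 13.7%, 9.44% and 16.6% of MG, and none in 23.9%, 34.6%, 29.2% and 22.2%.

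Genes of the Hippo pathway and the other targets were counted in the same comparisons, in which 34.3%, 25.1%, 30.4% and 29.3% of all genes were called higher in MG than in rods, cones, bipolar cells and microglia and macrophages. Of 16 Hippo pathway genes, 15 were tested in each comparison with another cell type, and 9 were higher and 1 lower in MG than in rods, 6 and 0 against cones, 9 and 1 against bipolar cells, and 8 and 2 against microglia and macrophages. *Yap1* was 41.3, 37.3, 33.1 and 37.9 CPM in MG, above rods by 4.98, cones by 3.36, bipolar cells by 1.64 and microglia and macrophages by 3.74 on the log2 scale, all called by edgeR. *Wwtr1*, which codes for TAZ, was 64.7, 294, 82.6 and 190 CPM in MG, higher in the 9.0.1 libraries by 1.83 (SE 0.37, adjusted p = 0.277), and 1.27 higher in the upper immediate-early class (adjusted p = 0.255). *Yap1* (0.16) and *Tead1* (0.23) had log2 differences between the versions near their standard errors of 0.20 and 0.21. *Tead1* was 124 to 145 CPM, *Tead2* 15.2 to 28.6 CPM, *Tead3* 7.92 to 11.4 CPM and *Tead4* 0.255 to 1.97 CPM in MG. Between the vectors 0 of 16 Hippo genes were called, and *Yap1* differed by −0.24 (SE 0.24). Vector transcripts of *Yap5SA* are not a listed feature, and whether their reads count as *Yap1* is not given in the sources used here.

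The 12 other genes of a published signature of 22 YAP and TAZ targets were counted in the same way. 10 were tested against rods (7 higher and 2 lower in MG), 9 against cones (6 and 0), 10 against bipolar cells (6 and 2) and 10 against microglia and macrophages (7 and 1). *Myof*, a membrane repair protein, was the highest by CPM in MG (175 to 222 CPM), followed by *F3*, tissue factor (68.2 to 174 CPM), and *Asap1* (62.1 CPM on average). *F3* was higher in MG in all 4 comparisons, by 3.48 to 7.62, whereas *Asap1* was lower than in rods (−1.43), bipolar cells (−1.61) and microglia and macrophages (−1.71). Between the vectors 0 of 10 were called. In the upper against the lower class by immediate-early genes, 1 of 10 was called, the stress gene *Gadd45a* (1.10, SE 0.15, adjusted p = 0.0385 by edgeR), and 6 of 10 were higher in deep MG.

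Each member was also set beside 10451 genes of at least 10 CPM by the Pearson correlation of log2(CPM + 1) over 15 combinations of cell type and library. The values are descriptions, since combinations of 1 library share its depth and free RNA. *Ccn1* was most like *9330188P03Rik* (r = 0.95), *Timp3* (0.95) and *Kcne1l* (0.93), *Ccn2* like *Prss23* (0.98), *Rgs6* (0.98) and *Frzb* (0.97), and *Tgfb2* like *Sema3e* (0.98), *Plod2* (0.98) and *Ndnf* (0.97). *Axl* was most like *Tgif1* (0.99), *Mdfic* (0.99) and *Ctsh* (0.98), *Nuak2* like *Klf13* (0.96), *Lipa* (0.95) and *Tmcc3* (0.95), and *Crim1* like *Pole4*, *Lrrk2* and *Fstl1* (0.93 each). *Amotl2* was most like *Cdh2* (0.96), *Clip4* (0.95) and *Mageh1* (0.94), *Ptpn14* like *Nudt4* (0.98), *Pcsk5* (0.98) and *Gpc4* (0.97), and *Lats2* like *Nup214* (0.89) and *Prdm9* (0.88). *Ankrd1*, with its few UMIs, was most like *Cenpb* (0.76), *Eef2* (0.67) and *Igfbp2* (0.67), the last also a leading gene of the cluster that held most *Ankrd1* UMIs.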

How the data were processed

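Single-cell 3′ gene expression was measured in tdTomato+ retinal cells. The authors deposited raw UMI counts per gene and cell, made with Cell Ranger against GRCm39. The labels name version 8.0.0, and the matrix headers name 8.0.0 or 9.0.1. Libraries held 13134827 to 50938304 UMIs in the 4 used, and *Yap5SA* AAV replicate 2 was left out as the same cells as replicate 1. Cells needed 1000 UMIs and at most 15% mitochondrial UMIs. No doublets were removed. Other cell types needed a marker share of 1% (rods, microglia and macrophages, pigment epithelium), 0.5% (cones) or 0.3% (bipolar and amacrine cells), and a unit needed 20 cells. Clusters came from scanpy 1.11.5 (3000 variable genes without the members, 30 components, 15 neighbours, Leiden resolution 1). Counts summed per library were tested with edgeR 4.0.16 (filterByExpr, TMM, quasi-likelihood, Benjamini-Hochberg over all genes, adjusted p under 0.05), with DESeq2 1.42.0 as an alternative. Test scripts were tested on simulated data. Shares were compared by exact permutation. Intervals are exact at 95%, and the floor for 0 is 3 counts. Named genes are the members, the highest or called genes of the target signature, *Yap1*, *Wwtr1* and the *Tead* genes, and the 3 genes most like each member. One gene and one promoter under these rules are not reported here. The members and lists were chosen with earlier results of these data known.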

Additional observations from a re-analysis of the deposited data

Results flagged for a closer look

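*Lats2* differed between the Cell Ranger versions in its log2 ratio of the upper over the lower class of MG by immediate-early gene share. The ratio was below 0 in both 8.0.0 libraries (−0.28 and −0.26) and above 0 in both 9.0.1 libraries (0.95 and 0.39), a difference of the means of 0.94, and this difference was not tested. *Amotl2* did so in its log2 ratio of deep over shallow MG, at −0.53 and −0.74 in the 8.0.0 libraries and 2.28 and 1.57 in the 9.0.1 libraries, a difference of the means of 2.56 that was not tested either.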

How the results depend on the processing

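No paired analysis was possible because, by the labels' numbers, the vectors share only replicate number 1 once *Yap5SA* AAV replicate 2 is left out. With the Cell Ranger version as a term, the vector comparison called 0 genes and 0 members, and 150 genes passed an unadjusted p of 0.05. Of 682 fold changes of members under alternatives, 619 kept direction and side of the threshold, 26 lost the call, 15 gained it and 22 changed direction. The vector comparison called 0 genes and 0 members under all 14 alternatives. There *Ptpn14* turned to −0.25 (MG of at least 2% markers) and −0.15 (lower immediate-early class), and leaving out 1 library gave −3.04 to 2.38 for *Ccn1*, −1.41 to 0.43 for *Ccn2*, −1.31 to 0.40 for *Amotl2*, −0.22 to 0.72 for *Crim1*, −0.086 to 0.23 for *Ptpn14* and −0.26 to 0.65 for *Nuak2*. Between versions, genes called were 528 (DESeq2), 38 (no filter on low counts), 44 (no TMM), 6 (2% markers), 18 (at least 5000 UMIs) and 0 to 572 (1 library left out, fitted without the vector term), and members called 2 (DESeq2), 1 (no TMM) and 0 to 1 (1 library left out). With 2% markers *Lats2* (−0.32), *Ptpn14* (−0.57), *Tgfb2* (−0.14) and *Nuak2* (−0.66) turned, and leaving out 1 library gave −0.065 to 0.46 for *Lats2* and −0.50 to 0.12 for *Axl*. Between immediate-early classes, genes called were 285 (DESeq2), 526 (no filter), 156 (highest and lowest of 3 classes) and 25 to 231 (1 library left out), members 2, 3, 1 and 0 to 2, with *Lats2* at −0.063 to 0.34 and *Crim1* at −0.30 to 0.074. By depth, a limit of 10000 UMIs called 0 genes and 0 members, and leaving out 1 library 2146 to 4738 genes and 1 to 5 members, with *Amotl2* at −0.046 to 1.00. Against cones DESeq2 called 2885 genes and 3 members. Against bipolar cells *Lats2* turned to 0.030 (no filter) and 0.022 (5000 UMIs) and *Nuak2* to 0.040 (5000 UMIs), while *Nuak2* was called at −1.77 (2% markers) and −0.90 (Leiden clusters). Members whose shares did not overlap between vectors numbered 1, 0 without thinning and 3 to 7 with 1 library left out, beside 16.1%, 7.83% and 48.6% to 65.7% of all genes. The shares over all genes were added after seeing the data. Without TMM the median of all genes moved from 0.25 to 0.72 against microglia and from 0.11 to 0.35 by depth. Leaving out a library was not run for rods, cones and bipolar cells, which rest on 2 libraries. Alternatives without TMM or without cells past another type's limit were chosen after seeing the data. The causes were not tested. *Ankrd1* did not pass the filter on low counts at this depth.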
